A study of Mus musculus with 6 samples.

Results

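The drug and steroid metabolism enzymes studied here are the cytochrome P450 (Cyp) genes without Cyp51, the cytosolic glutathione S-transferase (Gst) genes, the UDP-glucuronosyltransferase (Ugt) genes and the sulfotransferase (Sult) genes. They were chosen by gene name among protein-coding genes, and a gene was kept when at least 3 of the 6 libraries held 10 or more counts. Of 46517 gene rows, 163 protein-coding genes carried such a name and 49 passed this filter. The 49 members comprised 7 of 61 genes of the Cyp1 to Cyp3 families, 6 of 20 of the Cyp4 family, 11 of 18 of the higher Cyp families, 16 of 22 Gst genes, 4 of 21 Sult genes and 5 of 21 Ugt genes.

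Poly(A) RNA was sequenced from primary cultures of renal tubule epithelial cells (RTECs) grown from kidneys of FvB wild type mice. The labels give an age of 4 to 6 weeks, and the methods a slightly younger range. All 6 cultures were grown with serum, EGF and insulin-transferrin-selenium, and then spent 24 h without serum. The 3 TGF-β1 cultures then received 50 ng/ml TGF-β1 for 24 h, and the 3 control (CTL) cultures did not. TGF-β1 is a cytokine that drives fibrosis, and the comparison asks which transcripts of tubule cells it changed. Cells were taken from digested whole kidney with no sort, so that other kidney cells could grow along. Nothing in the labels says that replicates came from separate animals, and p-values measure the spread between these cultures.

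Foreign compounds, steroids, retinoids and vitamin D are cleared in steps. Cytochrome P450 enzymes insert oxygen, using electrons from P450 reductase or ferredoxin, and Gst, Ugt and Sult enzymes then attach glutathione, glucuronic acid or sulfate, after which transporters export the product. The proximal tubule is the main site of this chemistry in the kidney, and its enzymes are known to fade when tubule cells are placed in culture.

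Library totals on genes ranged from 28313080 to 34183497 counts, so that 3 counts corresponded to 0.0878 to 0.106 CPM (counts per 1000000 counts on genes). All 8 general tubule epithelium markers were detected, with a summed level of 1289 to 2924 CPM in CTL and 1008 to 2332 CPM in TGF-β1 libraries. Of 14 proximal tubule markers, 4 reached 10 counts in at least 3 libraries (Lrp2, Cubn, Aqp1 and Hnf4a), and Slc5a2 and Kap never exceeded 3 counts. The summed proximal tubule level was 81.1 to 97.5 CPM in CTL and 35.3 to 49.6 CPM in TGF-β1. Lrp2 was its largest part, at 27.7 to 75.8 CPM over the libraries. Of 5 tested proximal tubule markers edgeR called 2 lower and none higher. Cubn did not fall, with 156, 151 and 120 raw counts in CTL and 152, 162 and 142 in TGF-β1 cultures. Of 10 fibroblast markers, 8 reached 10 counts in at least 3 libraries, and the sum was 1558 to 2964 CPM in CTL and 1772 to 3612 CPM in TGF-β1. The collagen gene Col1a1 was its largest part, at 519 to 1760 CPM over the libraries. Which cells made these transcripts was not tested. In bulk RNA, fewer cells of a type and less RNA per cell cannot be told apart.

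Replicate 2 stood apart in both groups. A set of 4 Y-linked genes summed to 154 CPM in CTL replicate 2 and 136 CPM in TGF-β1 replicate 2, and to at most 0.177 CPM in the other 4 libraries, whereas the methods describe male mice. Xist, transcribed from the inactive X chromosome, was also present in replicate 2, at 243 CPM in CTL and 198 CPM in TGF-β1. It lay at 510 to 652 CPM in the other 4 libraries. Replicate 2 thus held both kinds of reads. The fibroblast sum was highest in replicate 2 of each group (2964 and 3612 CPM), and the tubule epithelium sum was lowest there (1289 and 1008 CPM). The study describes no pairing of cultures, but across genes same-numbered cultures deviated together from their group means, most clearly in replicate 2. Calls are therefore also given with the replicate number as a block (a term that compares same-numbered cultures) and without replicate 2.

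Most members that changed after TGF-β1 were lower. By edgeR's quasi-likelihood test, with Benjamini-Hochberg adjustment over all 15862 genes tested and an adjusted p under 0.05, 12 of 49 members were lower and 2 were higher in TGF-β1 cultures. Over all genes tested, 6.69% were called lower and 5% higher, 11.7% in either direction. With the replicate block, 24 members were lower and 3 were higher, where 19.1% and 15.1% of all genes, 34.2% in either direction, were called. Without replicate 2 in both groups, 16 members were lower and 2 were higher, where 8.09% and 6.79% of genes, 14.9% in either direction, were called.

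The 12 lower members were Ugt2b37, Ugt2b5, Ugt2b34, Ugt1a7c, Gstm1, Gstm2, Gstm5, Gstm7, Cyp26b1, Cyp27a1, Cyp7b1 and Cyp4a12b, and the 2 higher members were Cyp11b1 and Cyp26a1. The block added 12 lower calls and 1 higher call and removed none. The median log2 fold change was -0.39 over the 49 members and -0.0028 over all genes. In 23 members all TGF-β1 cultures lay below all CTL cultures, which was so for 18% of all genes, and in 3 members all lay above, which was so for 17.2%. Within same-numbered pairs, 32 members were lower in all 3, as were 32.6% of all genes. Of the members, 5 reached the filter only through CTL cultures and so had to be lower (Cyp24a1, Cyp27a1, Sult1c2, Ugt2b5 and Ugt2b37). These 5 are counted among the 23 and the 32 and enter the median, so these values are partly fixed by the filter. Of the other 44 members 9 were called lower and 2 were called higher.

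Of the 14 called members, Gstm1, Ugt1a7c, Ugt2b34, Ugt2b37 and Ugt2b5 were called in all 6 fits that left out 1 culture. Gstm2 was called in 5 of these fits, Cyp11b1, Cyp7b1 and Gstm5 in 4, Cyp4a12b, Cyp26a1 and Cyp26b1 in 1, and Cyp27a1 and Gstm7 in 0. In these 9 members the highest edgeR adjusted p over the fits lay between 0.052 for Gstm2 and 0.153 for Cyp26a1, and none of the 14 changed direction. Without replicate 1 in both groups edgeR called no member and no other gene, and 17 members had an unadjusted p under 0.05.

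**Figure D1:**
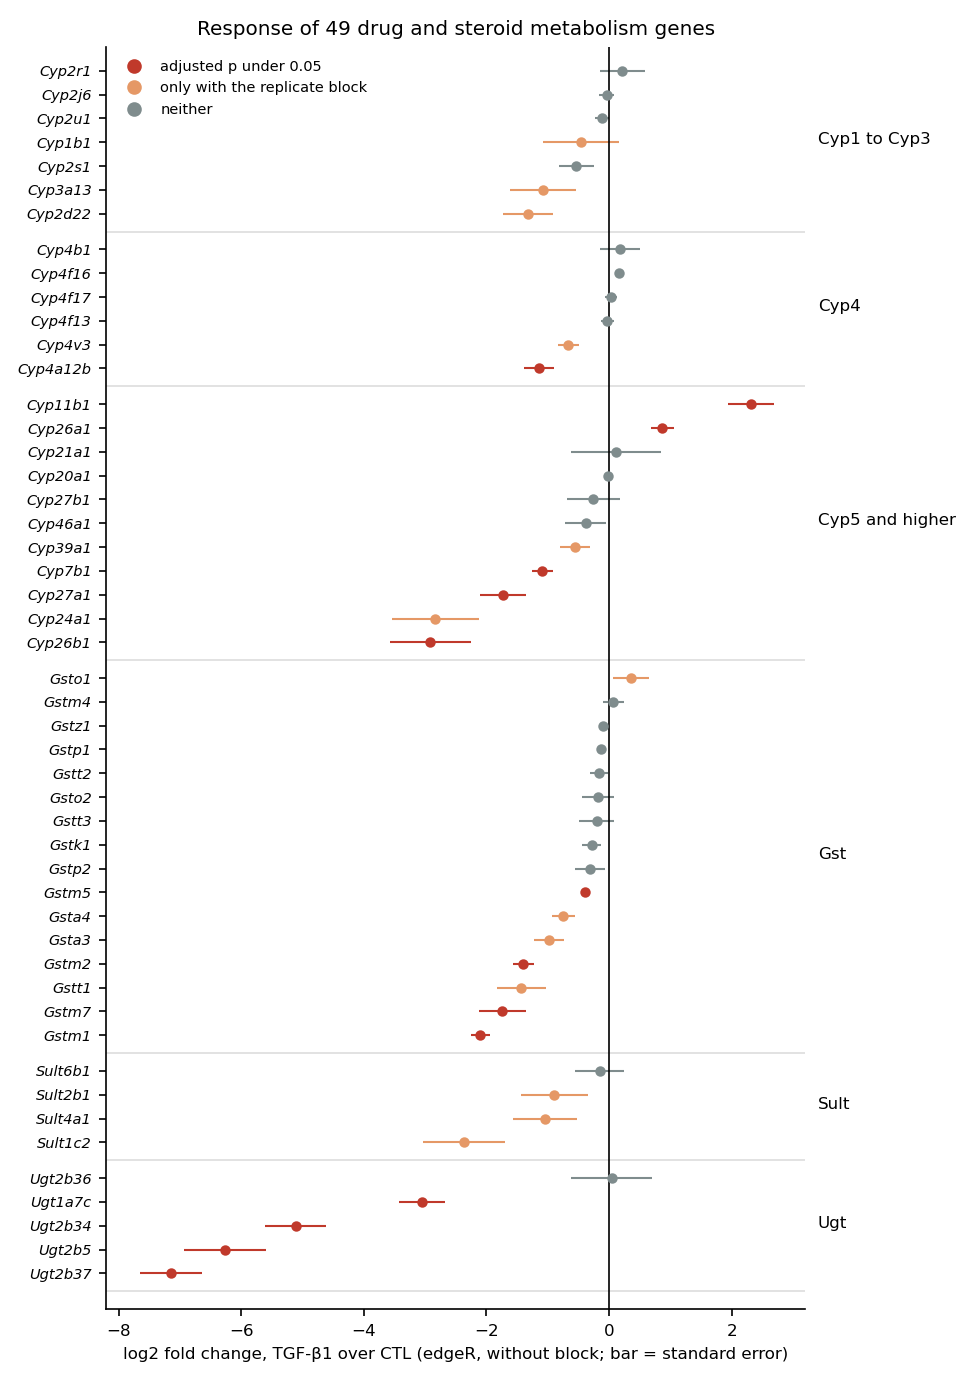
log2 fold change of each of the 49 members (TGF-β1 over CTL, edgeR without the block), with its standard error as a horizontal bar, grouped by gene family. Red points passed an adjusted p of 0.05, orange points passed only with the replicate block and grey points passed in neither fit. The Ugt genes span -7.15 to 0.04, and Cyp11b1 stands highest at 2.31.

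Levels differed widely between members. Per kb of exon, Cyp1b1 was highest in CTL, at a mean of 68.8 CPM per kb, followed by Gsto1 at 53.9, Gstm1 at 49.9 and Gstp1 at 28.2 CPM per kb. In TGF-β1 cultures Gsto1 was highest at 65.9 CPM per kb, followed by Cyp1b1 at 47.3 and Gstp1 at 24.5, and Gstm1 stood at rank 6 with 11.1 CPM per kb. The order of Cyp1b1 and Gsto1 was not beyond the spread between cultures. Ugt2b37 stood at rank 15 of 49 in CTL, with 4.30 CPM per kb, and at rank 48 in TGF-β1, with 0.026 CPM per kb. All 49 members together took 809 to 1251 CPM in CTL and 650 to 865 CPM in TGF-β1 libraries. The groups overlapped, and the sum was lower in TGF-β1 in each of the 3 same-numbered pairs (886 and 650, 1251 and 865, 809 and 658 CPM).

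**Figure D2:**
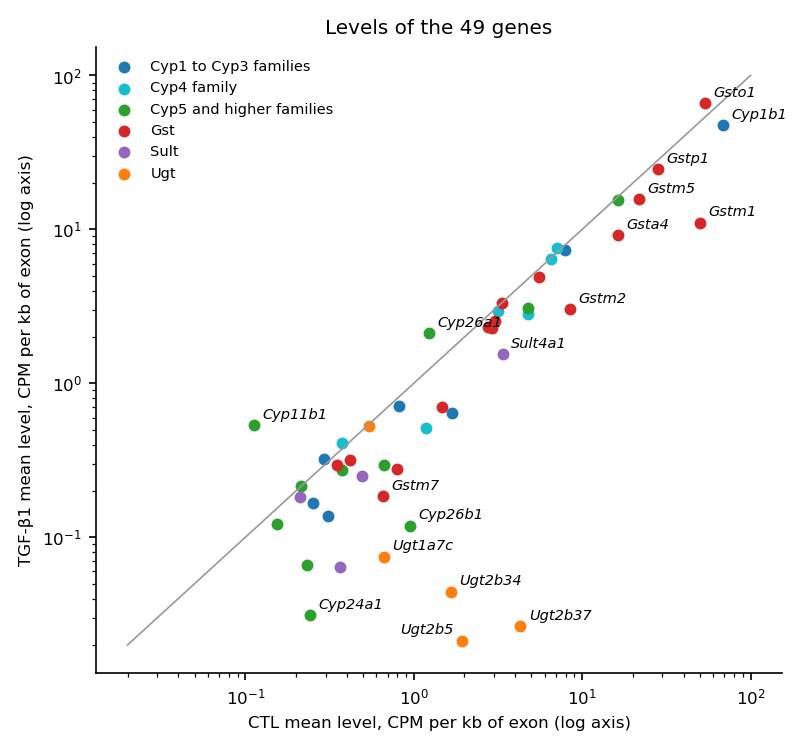
Mean level of each member in CTL (horizontal) and TGF-β1 cultures (vertical), in CPM per kb of exon on log axes, coloured by family. The line marks equal levels. Gsto1 and Cyp1b1 lie at the upper right, and the Ugt genes Ugt2b37, Ugt2b5 and Ugt2b34 lie farthest below the line.

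Most genes of these families were near or at 0. Of the 114 named genes below the filter, 46 had no count in any library, and the highest count in any library was 27. Cyp1a1 and Cyp1a2, the classical targets of the aryl hydrocarbon receptor, had 0 counts in all 6 libraries, which allows up to 0.106 CPM in the smallest library. Cyp2e1, an ethanol-oxidizing enzyme of liver, had at most 2 counts. Sult1a1, a phenol sulfotransferase, had 15, 9 and 11 counts in CTL and 3, 3 and 8 in TGF-β1 cultures. Sult1d1 had at most 5 counts and Ugt3a1 at most 1. Counting intervals and floors here cover counting error only, not the spread between cultures. The reads carried no molecular identifiers, so even the counting error may be understated.

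The lowest fold changes among all members were in the Ugt genes, whose enzymes make steroids, bilirubin, phenols and drugs soluble by adding glucuronic acid. Of 5 Ugt members, 4 were lower and Ugt2b36 was not called, where 6.69% of all genes were called lower. Ugt2b37 and Ugt2b5 passed the filter only through CTL, so their direction was fixed by it. The 5 Ugt members together fell from 14.6 to 27.4 CPM in CTL libraries to 0.722 to 2.55 CPM in TGF-β1 libraries. The 4 Ugt2b members lie in 1 cluster on the minus strand of chromosome 5 (GRCm38, chr5:86889767-87254804), in the order Ugt2b34, Ugt2b36, Ugt2b5 and Ugt2b37, with genes of the family below the filter between them.

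Their promoters are shown because the genes are of the same family and cluster, and 3 of them were lower while Ugt2b36 was not called. Each line gives the 120 bases before the RefSeq transcript start, 5′ to 3′ on the gene's strand, from RefSeq for GRCm38.p6. Capitals mark the longest run of identical bases that Ugt2b36 shared with Ugt2b5 and with Ugt2b37, and Ugt2b34 holds no such run. The windows are chr5:86906938-86907057 for Ugt2b34, chr5:87092556-87092675 for Ugt2b36, chr5:87140341-87140460 for Ugt2b5 and chr5:87254789-87254908 for Ugt2b37, all on the minus strand.
Ugt2b34: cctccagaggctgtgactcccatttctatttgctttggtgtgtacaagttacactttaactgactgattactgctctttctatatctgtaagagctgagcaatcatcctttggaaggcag
Ugt2b36: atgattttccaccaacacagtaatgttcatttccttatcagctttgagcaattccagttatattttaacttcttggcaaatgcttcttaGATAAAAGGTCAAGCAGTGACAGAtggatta
Ugt2b5: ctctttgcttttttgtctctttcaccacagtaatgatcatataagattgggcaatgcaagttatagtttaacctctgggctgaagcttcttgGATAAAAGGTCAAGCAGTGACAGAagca
Ugt2b37: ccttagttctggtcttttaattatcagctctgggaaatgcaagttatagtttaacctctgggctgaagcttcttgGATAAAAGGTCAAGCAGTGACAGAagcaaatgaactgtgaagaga

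The run in capitals is 24 bases long and lay 31 to 8 bases before the RefSeq start in Ugt2b36, 28 to 5 in Ugt2b5 and 45 to 22 in Ugt2b37. The promoters of Ugt2b5 and Ugt2b37 shared a longer run of 68 identical bases that holds it. Between Ugt2b34 and the other 3 members the longest shared run was 7 or 8 bases. The marked run was thus present in the gene that was not called as well as in 2 of the 3 that were lower. It describes shared letters, not binding.

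Ugt2b37 had normalized counts of 288, 316 and 152 in CTL replicates 1, 2 and 3 and of 1.0, 1.0 and 2.8 in TGF-β1 replicates 1, 2 and 3. Every TGF-β1 culture lay far below every CTL culture, a direction that was fixed because Ugt2b37 passed the filter only through CTL. The log2 fold change was -7.15 ± 0.50 (SE, n = 3 per group, edgeR adjusted p = 0.0022), from a mean of 252 ± 87.8 (SD) to 1.62 ± 1.03. From the summed raw counts, 765 against 5, divided by the summed library totals, the CTL level was 162-fold higher, with an exact 95% counting interval of 69.2 to 501.

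Ugt2b5 had 141, 131 and 60.0 normalized counts in CTL and 1.0, 0 and 2.8 in TGF-β1 cultures. The groups did not overlap, which was fixed because Ugt2b5 passed the filter only through CTL. The log2 fold change was -6.26 ± 0.67 (SE, edgeR adjusted p = 0.0062). The summed counts were 337 and 4, an 89.3-fold difference per library total, with a counting interval of 34.6 to 330. Of the 50-base words in the exons of Ugt2b5, 41.7% also occur in other genes, mainly Ugt2b38 and Ugt2b37, and 18.3% of those of Ugt2b37 do so, so reads that fit more than 1 of these genes were not counted.

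Ugt2b34, whose words are shared to 1.44%, had 278, 262 and 121 normalized counts in CTL and 6.1, 3.1 and 9.4 in TGF-β1 cultures. Again no TGF-β1 culture reached the CTL range, and the log2 fold change was -5.11 ± 0.50 (SE, edgeR adjusted p = 0.0048). Summed counts of 671 and 19 gave a 37.4-fold difference per library total, with an interval of 23.8 to 62.6. Ugt2b38, in the same family and below the filter, had 24, 27 and 9 raw counts in CTL and 1, 1 and 0 in TGF-β1 cultures, and Ugt2b35 had 12, 8 and 7 against 1, 1 and 3. These 2 genes were named after their values were seen.

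Ugt2b36 had 37.7, 11.5 and 54.6 normalized counts in CTL and 34.6, 14.5 and 56.4 in TGF-β1 cultures. Same-numbered cultures were close to each other and replicate 2 was lowest in both groups. The log2 fold change was 0.04 ± 0.66 (SE), with an edgeR adjusted p of 0.978 and of 0.945 with the block. Only 0.285% of its words occur in other genes. The difference between its fold change and those of its neighbours was not tested, and it was singled out after its values were seen.

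Ugt1a7c encodes a Ugt1a enzyme on chromosome 1 (chr1:88095062-88220002, plus strand). It had 98.6, 97.2 and 63.3 normalized counts in CTL and 15.2, 5.2 and 10.3 in TGF-β1 cultures, with no overlap. The log2 fold change was -3.06 ± 0.37 (SE, edgeR adjusted p = 0.0083), and summed counts of 261 and 31 gave an 8.92-fold difference per library total, with an interval of 6.14 to 13.4. Ugt1a genes join their own first exon to shared later exons, and 1915 of the 4219 exon bases of Ugt1a7c belong to no other gene in the annotation. The 8 other Ugt1a genes had at most 9 counts in any library and summed to 62 counts in CTL and 7 in TGF-β1 cultures.

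**Figure D3:**
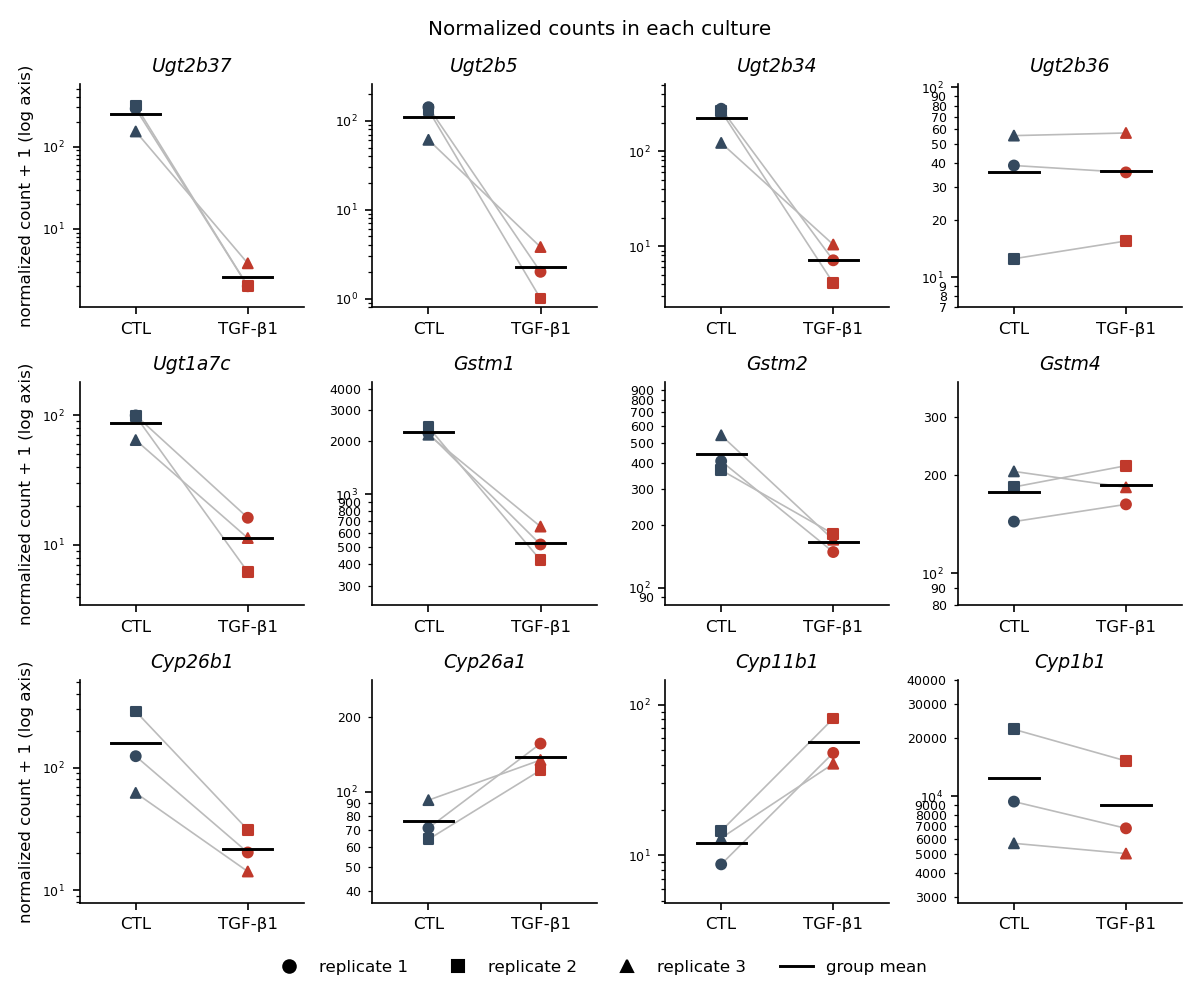
Normalized count plus 1 (log axis) of 12 members in each of the 6 cultures, with lines joining same-numbered cultures, marker shapes for the replicate number and bars for group means. Ugt2b37, Ugt2b5, Ugt2b34, Ugt1a7c, Gstm1, Gstm2 and Cyp26b1 are lower in all 3 TGF-β1 cultures, Cyp26a1 and Cyp11b1 are higher in all 3, and Ugt2b36, Gstm4 and Cyp1b1 overlap.

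Gst enzymes conjugate glutathione to reactive compounds. Of 16 Gst members, 4 were lower and 12 were not called, where 6.69% of all genes were called lower. With the block 7 were lower and 1 was higher, where 19.1% and 15.1% of all genes were called. Without replicate 2 in both groups 6 were lower, where 8.09% of all genes were called lower. All 4 lower genes belong to the mu class, which in these cultures was expressed from 5 neighbouring genes on chromosome 3 (chr3:107895821-108044894) in the order Gstm5, Gstm7, Gstm2, Gstm1 and Gstm4.

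Gstm1 had 2221, 2410 and 2180 normalized counts in CTL and 516, 420 and 653 in TGF-β1 cultures. No culture overlapped with the other group, and the log2 fold change was -2.10 ± 0.16 (SE, edgeR adjusted p = 0.0032), a 4.28-fold lower level. Words of Gstm1 are shared to 18.9%, mainly with Gstm3 and pseudogenes. Gstm3 itself had at most 7 counts.

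Gstm2 had 406, 367 and 541 normalized counts in CTL and 147, 180 and 169 in TGF-β1 cultures. Its log2 fold change was -1.40 ± 0.17 (SE, edgeR adjusted p = 0.0083), and the groups were separate. Gstm7 was lower at 23.2, 48.1 and 26.2 in CTL against 8.1, 12.4 and 8.5 in TGF-β1 cultures, with a log2 fold change of -1.74 ± 0.39 (SE, edgeR adjusted p = 0.0381). Gstm5 fell less, by 0.39 ± 0.06 on the log2 scale (edgeR adjusted p = 0.0161), from a mean of 855 ± 20.8 (SD) to 654 ± 32.2.

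Gstm4, at the end of this row, had 143, 183 and 204 normalized counts in CTL and 162, 212 and 182 in TGF-β1 cultures. The groups overlapped, with a log2 fold change of 0.07 ± 0.17 (SE, edgeR adjusted p = 0.83). Neighbouring Gstm genes were thus not called alike, and the difference between them was not tested. Gstm4 and Gstm5 were named after their values were seen.

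**Figure D4:**
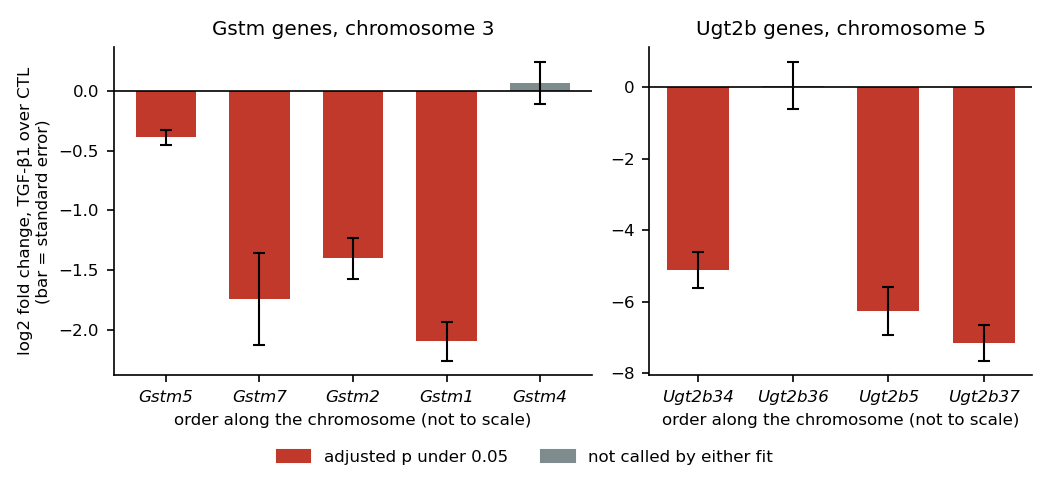
log2 fold change (TGF-β1 over CTL, bars from 0, whiskers give the standard error) of 5 Gstm genes and 4 Ugt2b genes in their order along the chromosome, without distances. The vertical scales differ. Gstm4 at 0.07 and Ugt2b36 at 0.04 are the members near 0 in each row.

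The alpha class members Gsta3 and Gsta4 were called only with the block. Gsta4, which clears aldehydes made by lipid peroxidation, had 582, 771 and 557 normalized counts in CTL and 330, 465 and 344 in TGF-β1 cultures. All TGF-β1 cultures were below all CTL cultures, and the log2 fold change of -0.75 ± 0.18 (SE) had an edgeR adjusted p of 0.0512, and of 0.0002 with the block. Gsta3 had 228, 171 and 191 in CTL and 124, 67.4 and 107 in TGF-β1 cultures, with a log2 fold change of -0.98 and an edgeR adjusted p of 0.0514, and of 0.001 with the block. Without replicate 2 both passed, with edgeR adjusted p-values of 0.0056 for Gsta4 and 0.0231 for Gsta3.

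Gstt1, a theta class enzyme, had 46.4, 44.3 and 21.8 normalized counts in CTL and 17.3, 8.3 and 16.0 in TGF-β1 cultures, with no overlap. Its log2 fold change of -1.43 ± 0.40 (SE) had an edgeR adjusted p of 0.0709, and of 0.0143 with the block. Without replicate 2 in both groups the edgeR adjusted p was 0.167. Its neighbours Gstt2 and Gstt3 had log2 fold changes of -0.17 and -0.20 and were called in neither fit.

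Gsto1 and Gstp1, which with Gstm1 were the most abundant Gst members, were not called without the block. Gsto1, an omega class enzyme, had 3378, 2098 and 4638 normalized counts in CTL and 4229, 3628 and 5136 in TGF-β1 cultures. The groups overlapped, although each TGF-β1 culture lay above the CTL culture of its number. The log2 fold change of 0.36 ± 0.29 (SE) had an edgeR adjusted p of 0.473, and of 0.0455 with the block. Without replicate 2 in both groups the edgeR adjusted p was 0.451. Gstp1, the main pi class enzyme, had a mean of 1350 ± 31.5 (SD) in CTL and 1235 ± 42.2 in TGF-β1 cultures, with a log2 fold change of -0.13 ± 0.05 (SE) and an edgeR adjusted p of 0.156. Its words are shared to 33.7%, mainly with Gstp2.

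Of 24 P450 members, 4 were lower, 2 were higher and 18 were not called. With the block 10 were lower and 2 were higher, and without replicate 2 in both groups 6 were lower and 2 were higher. Over all genes 6.69% were called lower and 5% higher, and with the block 19.1% and 15.1%. Without replicate 2 in both groups these shares were 8.09% and 6.79%. Families above Cyp4, which act on steroids, bile acid precursors, vitamin D and retinoic acid, made up 11 of the 24 P450 members. They held 5 of the 6 called genes, and with the block 7 of 12. With the block 5 of these 11 were lower, against 3 of 7 in the Cyp1 to Cyp3 families and 2 of 6 in the Cyp4 family. The difference between families was not tested. The 2 retinoic acid hydroxylases went in opposite directions. Cyp26b1 and Cyp26a1 both inactivate retinoic acid.

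Cyp26b1 (chr6:84571414-84593908) had 123, 286 and 61.1 normalized counts in CTL and 19.3, 30.1 and 13.2 in TGF-β1 cultures. CTL cultures varied widely, with replicate 2 highest in both groups, yet all TGF-β1 cultures lay below all CTL cultures. The log2 fold change was -2.91 ± 0.66 (SE, edgeR adjusted p = 0.0422), and without replicate 2 it was -2.51 (edgeR adjusted p = 0.0204).

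Cyp26a1 (chr19:37697798-37701536) had 70.6, 63.5 and 91.7 normalized counts in CTL and 156, 121 and 133 in TGF-β1 cultures. All TGF-β1 cultures were above all CTL cultures, and the log2 fold change was 0.86 ± 0.19 (SE, edgeR adjusted p = 0.0362), a 1.82-fold higher level. Without replicate 2 it was 0.84 (edgeR adjusted p = 0.042). The promoter of Cyp26a1 is shown because it holds AGTTCA as a direct repeat with 5 bases of any kind between the copies, known as a binding sequence of retinoic acid receptors. The window is chr19:37697688-37697807 on the plus strand of GRCm38.p6, from RefSeq, and capitals mark the repeat, which reads on the minus strand.
Cyp26a1: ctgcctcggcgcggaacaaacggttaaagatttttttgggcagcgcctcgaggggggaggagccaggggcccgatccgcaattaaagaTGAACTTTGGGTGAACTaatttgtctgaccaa

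The repeat lay 32 to 16 bases before the start. The search covered promoters of 300 bases, which also hold bases past the start. Of 32851 promoters 8 (0.024%) held these letters on either strand, among the members Cyp26a1 alone. Only this exact form was searched, and a long motif is rare by its length. The other letters searched were shorter and common, so the shares cannot be compared between motifs. GCGTG, the core bound by the aryl hydrocarbon receptor, occurred in 32.4% of all promoters and in 10 of 37 members. CAGACA, a SMAD box, occurred in 21.0% and in 9 members, and TGACNNNGC, the antioxidant response core, in 12.4% and in 4 members. Cyp26a1 is among the 9, with a SMAD box on the minus strand whose first base lay 11 bases before the start. That box falls within the stretch shown, outside the capitals. The part of either sequence in the result was not tested.

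Cyp11b1, the enzyme of the last step to corticosterone, had 7.7, 13.5 and 12.0 normalized counts in CTL and 46.8, 79.8 and 39.5 in TGF-β1 cultures. All TGF-β1 cultures were above all CTL cultures, with a log2 fold change of 2.31 ± 0.37 (SE, edgeR adjusted p = 0.0162), a 4.95-fold higher level. Per kb of exon it was the lowest member in CTL, at 0.113 CPM per kb, and 0.536 CPM per kb in TGF-β1 cultures. Of its words 18.1% also occur in other genes, mainly Cyp11b2 and Gml2, and Cyp11b2 had 0 counts in every library.

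Of the members that act on cholesterol and its oxidation products, Cyp7b1 and Cyp27a1 were lower. Cyp7b1, which hydroxylates oxysterols, had 43.5, 42.3 and 48.0 normalized counts in CTL and 19.3, 20.7 and 22.5 in TGF-β1 cultures, with little spread in either group. Its log2 fold change was -1.09 ± 0.17 (SE, edgeR adjusted p = 0.0158). Cyp27a1, the sterol side chain hydroxylase, was low throughout, at 11.6, 21.2 and 14.2 in CTL and 6.1, 4.1 and 3.8 in TGF-β1 cultures, and had a log2 fold change of -1.73 ± 0.38 (SE, edgeR adjusted p = 0.0371). Cyp27a1 passed the filter only through CTL, so its direction was fixed, and without replicate 2 its edgeR adjusted p was 0.106. Cyp39a1, another oxysterol hydroxylase, had 497, 354 and 498 in CTL and 318, 212 and 386 in TGF-β1 cultures, with a log2 fold change of -0.55 and an edgeR adjusted p of 0.204, and of 0.0024 with the block.

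Of the vitamin D enzymes, Cyp24a1, which inactivates vitamin D, had 14.5, 51.0 and 14.2 normalized counts in CTL and 3.0, 3.1 and 4.7 in TGF-β1 cultures. The groups did not overlap, but CTL replicate 2 was much higher than the other CTL cultures, and the log2 fold change of -2.83 ± 0.71 (SE) had an edgeR adjusted p of 0.0537, and of 0.0025 with the block. Without replicate 2 it was -1.84 (edgeR adjusted p = 0.0457). Cyp24a1 passed the filter only through CTL, so its direction was fixed. Cyp27b1, which activates vitamin D, had 19.3, 6.7 and 10.9 in CTL and 12.2, 8.3 and 10.3 in TGF-β1 cultures, with overlap and an edgeR adjusted p of 0.741. Cyp20a1, a P450 with no settled substrate and the most abundant of the higher families, had a log2 fold change of -0.01 ± 0.06 (SE, edgeR adjusted p = 0.936).

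In the Cyp4 family, whose enzymes hydroxylate the end of fatty acid chains, only Cyp4a12b of 6 members was called. It had 97.6, 87.6 and 78.6 normalized counts in CTL and 47.8, 27.0 and 44.2 in TGF-β1 cultures, with no overlap and a log2 fold change of -1.15 ± 0.24 (SE, edgeR adjusted p = 0.034). Its words are shared to 49.4% with Cyp4a12a, which had at most 6 counts. Cyp4v3 had 614, 459 and 601 in CTL and 344, 291 and 417 in TGF-β1 cultures, a log2 fold change of -0.67 and an edgeR adjusted p of 0.0562, of 0.0006 with the block and of 0.0162 without replicate 2. Cyp4f16, Cyp4f17 and Cyp4b1 had log2 fold changes of 0.17, 0.04 and 0.18 and were called in neither fit.

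None of the 7 members of the Cyp1 to Cyp3 families, which oxidize most drugs, was called by edgeR without the block. There 1 had an unadjusted p under 0.05 and DESeq2 called 1. Without replicate 2 in both groups edgeR also called none of the 7. Cyp1b1 (chr17:79701537-79715061), which oxidizes estrogens and polycyclic hydrocarbons, had 9388, 22236 and 5705 normalized counts in CTL and 6822, 15253 and 5048 in TGF-β1 cultures. Replicate 2 exceeded the mean of replicates 1 and 3 by 1.56 on the log2 scale in CTL and by 1.36 in TGF-β1 cultures, and the groups overlapped. Each TGF-β1 culture lay below the CTL culture of its number, and the log2 fold change of -0.46 ± 0.62 (SE) had an edgeR adjusted p of 0.675, and of 0.0042 with the block. Cyp1b1 made up 22.8% to 57.3% of all member counts, depending on the library. Of the fibroblast markers, Col1a1, Col1a2, Col3a1, Pdgfrb and Dcn also had their highest raw counts in replicate 2 of both groups, while Postn and Thy1 had their lowest there, and their part in the result was not tested.

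Cyp2d22, a drug-oxidizing P450, had 163, 156 and 296 normalized counts in CTL and 65.1, 53.9 and 126 in TGF-β1 cultures. The groups did not overlap, and replicate 3 was highest in both. Its log2 fold change of -1.32 ± 0.41 (SE) had an edgeR adjusted p of 0.0947, and of 0.0001 with the block. Cyp3a13, of the main drug-metabolizing family, had 28.0, 12.5 and 44.7 in CTL and 19.3, 8.3 and 12.2 in TGF-β1 cultures, with an edgeR adjusted p of 0.243, and of 0.0367 with the block. Cyp2j6, which makes epoxides from arachidonic acid, had a log2 fold change of -0.04 ± 0.12 (SE, edgeR adjusted p = 0.862).

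No Sult member was called by edgeR without the block, where 1 had an unadjusted p under 0.05 and DESeq2 called 1. With the block 3 of 4 were lower, where 19.1% of all genes were called lower. Without replicate 2 in both groups none of the 4 was called, where 14.9% of all genes were called in either direction. Sult4a1 had 207, 136 and 442 normalized counts in CTL and 94.5, 89.1 and 194 in TGF-β1 cultures. The groups overlapped, with replicate 3 highest in both, and the log2 fold change of -1.05 ± 0.52 (SE) had an edgeR adjusted p of 0.249, and of 0.0009 with the block. Sult2b1, which sulfates cholesterol, had 61.9, 26.9 and 91.7 in CTL and 31.5, 16.6 and 47.9 in TGF-β1 cultures, with an edgeR adjusted p of 0.341, and of 0.0061 with the block. Sult1c2 had a log2 fold change of -2.37 and an edgeR adjusted p of 0.0723, and of 0.0254 with the block. Leaving out 1 culture moved its log2 fold change between -3.66 and -1.93, and it passed the filter only through CTL.

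**Figure D5:**
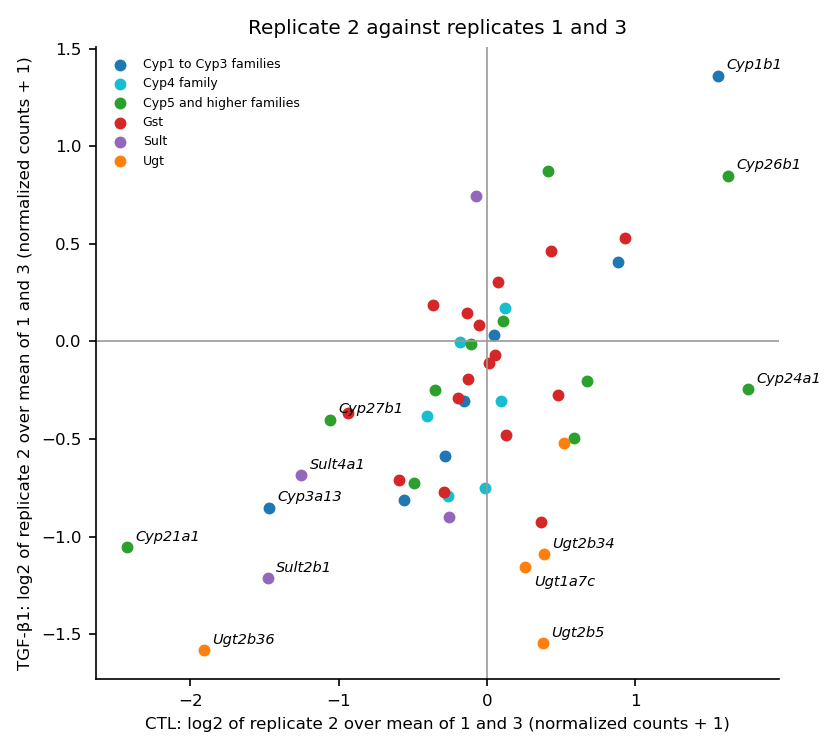
Log2 of replicate 2 over the mean of replicates 1 and 3, in normalized counts plus 1, for each member in CTL (horizontal) and TGF-β1 cultures (vertical). Of the 49 members, 32 lie on the same side of 0 in both groups. Cyp1b1 lies over 1 above 0 in both, and Cyp21a1, Sult2b1 and Ugt2b36 lie over 1 below 0 in both.

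The genes that serve these enzymes were taken from 7 lists of 126 genes, of which 92 were tested. Of these, 18 were lower and 3 were higher, where 6.69% and 5% of all genes were called. With the block 37 were lower and 7 were higher, where 19.1% and 15.1% of all genes were called. Without replicate 2 in both groups 23 were called in either direction, where 14.9% of all genes were called. The same shares of all genes apply to each list below. The counts of single lists are small and were not tested against these shares. Their median log2 fold change was -0.13.

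Among regulators, 3 of 18 tested genes were lower, and 7 with the block, where 6.69% and 19.1% of all genes were called lower. Nr1h4, the bile acid receptor, had 40.6, 35.6 and 36.0 normalized counts in CTL and 9.1, 13.5 and 17.9 in TGF-β1 cultures, with a log2 fold change of -1.46 and an edgeR adjusted p of 0.0233. Nfe2l2, which drives antioxidant genes, fell by 0.47 on the log2 scale (edgeR adjusted p = 0.0425), and Cebpb fell by 0.42 (edgeR adjusted p = 0.0484). The nuclear receptor Hnf4a had a log2 fold change of -1.53, with an edgeR adjusted p of 0.0591, and of 0.0045 with the block. Without replicate 2 in both groups its edgeR adjusted p was 0.13.

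The aryl hydrocarbon receptor Ahr had a mean of 693 ± 41.0 (SD) in CTL and 647 ± 38.5 in TGF-β1 cultures, with an edgeR adjusted p of 0.447. Tiparp and Rxra had log2 fold changes of -0.06 and -0.14 and were called in neither fit. The Ahr repressor Ahrr was too low to be tested.

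Of 7 electron donors of P450 enzymes, 2 were lower. Cyb5a, a cytochrome that passes electrons to P450 enzymes, had 1839, 1887 and 1698 normalized counts in CTL and 1133, 1156 and 1189 in TGF-β1 cultures, with a log2 fold change of -0.64 ± 0.06 (SE, edgeR adjusted p = 0.0038). Por, the P450 reductase, fell by 0.23 on the log2 scale (edgeR adjusted p = 0.0399). Of the 10 genes that supply UDP-glucuronic acid and activated sulfate, none was called by edgeR in either fit or by DESeq2, 1 had an unadjusted p under 0.05 in edgeR, and their log2 fold changes lay between -0.13 and 0.15.

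Of 13 tested glutathione genes, 2 were lower, and with the block 6 were lower and 2 were higher. Gclc, the rate-limiting enzyme of glutathione synthesis, had 3761, 3745 and 2680 normalized counts in CTL and 2103, 2054 and 1988 in TGF-β1 cultures. Its log2 fold change was -0.73 (edgeR adjusted p = 0.0254, and 0.0597 without replicate 2 in both groups). Oplah, which recycles oxoproline, fell by 0.87 on the log2 scale (edgeR adjusted p = 0.0408).

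Of 24 tested enzymes of other oxidation, reduction and hydrolysis, 6 were lower and 2 were higher, and with the block 11 and 4. The shares of all genes were 6.69% lower and 5% higher, and with the block 19.1% and 15.1%. Fmo2, a flavin monooxygenase, had 155, 157 and 144 normalized counts in CTL and 14.2, 15.5 and 28.2 in TGF-β1 cultures, with a log2 fold change of -2.96 ± 0.27 (SE, edgeR adjusted p = 0.0038). Adh1 and Aldh1a1, which oxidize retinol and retinal, had log2 fold changes of -2.82 and -2.45 (edgeR adjusted p = 0.012 and 0.011). Aldh1a1 had 289, 413 and 187 normalized counts in CTL and 61.0, 41.5 and 60.1 in TGF-β1 cultures. Hsd11b2, which inactivates corticosterone, was higher, at 461, 284 and 654 in CTL and 1655, 940 and 1801 in TGF-β1 cultures, with a log2 fold change of 1.65 ± 0.37 (SE, edgeR adjusted p = 0.0415). Nqo1, a quinone reductase, had a log2 fold change of -0.96 and an edgeR adjusted p of 0.0574, and of 0.0048 with the block. Without replicate 2 in both groups its edgeR adjusted p was 0.0446.

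Of 11 tested genes of other conjugation, 3 were lower, among them Glyat and Mgst1 with log2 fold changes of -1.85 and -0.99, and Nat2 was higher at 0.46 (edgeR adjusted p = 0.0156, 0.0182 and 0.0256). With the block 5 were lower and 1 was higher. Of 9 tested drug transporters, 2 were lower, and 6 with the block. Slco1a6, an organic anion uptake carrier, had 211, 190 and 126 normalized counts in CTL and 21.3, 29.0 and 29.1 in TGF-β1 cultures, with a log2 fold change of -2.72 ± 0.26 (SE, edgeR adjusted p = 0.0042). Abcc4, an export pump for conjugates, had 6914, 6517 and 7496 in CTL and 3014, 2310 and 4069 in TGF-β1 cultures, with a log2 fold change of -1.16 ± 0.20 (SE, edgeR adjusted p = 0.0221). In both transporters all TGF-β1 cultures lay below all CTL cultures.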

How the data were processed

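RNA sequencing gave 1 deposited file of read counts per gene for each of the 3 CTL and 3 TGF-β1 cultures. The authors prepared poly(A) RNA with a TruSeq kit, trimmed single-end 50-base reads with Trim Galore, aligned them to GRCm38 with STAR 2.4.1d and counted whole reads per gene with HTSeq 0.6.1. The counts carry no normalization. The annotation release and the strand setting of the counting are not given in the sources used here. Reads placed on more than 1 gene or more than 1 place were left out of the counts by the authors, so near-identical genes can be undercounted. Summary rows that name no gene held 25.4% to 25.9% of each file's total and stayed out of library sizes and tests.

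Symbols, positions and exon lengths came from GENCODE M21, which matched 46005 of 46517 gene rows. Library totals on genes were 28313080 to 34183497. Counts were fitted in R 4.3.3 with edgeR 4.0.16 (genes kept by filterByExpr, libraries scaled by TMM, robust glmQLFit, then a two-sided glmQLFTest), and p-values of the 15862 genes tested were adjusted by the Benjamini-Hochberg method and called under 0.05. Normalized counts are counts scaled by TMM library sizes. Standard errors were derived from the F statistic. The study compared the groups unpaired, and so did the main tests reported here. Values given with the replicate block come from a fit that compares same-numbered cultures. The deviations of same-numbered cultures from their group means correlated at 0.34, 0.684 and 0.572 for replicates 1, 2 and 3. Across numbers, CTL replicate 1 with TGF-β1 replicate 3 gave 0.215, and CTL replicate 3 with TGF-β1 replicate 1 gave 0.144. Replicate 2 with the other numbers gave -0.617 to -0.311. The pairing was thus clearest for replicate 2, and replicates 1 and 3 were less well separated. Deviations within a group cancel out, so a distinct replicate 2 by itself makes replicates 1 and 3 deviate alike. No 2 libraries agreed within sampling noise (smallest chi-square per degree of freedom 9.82).

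The share of words of 50 bases found in other genes was counted on the annotated exons. Promoters came from the RefSeq table for GRCm38.p6. The alternatives were RLE normalization, library size only, DESeq2 1.42.0, other count filters, the replicate block, and leaving out each culture or replicate number. The scripts were tested on simulated data. Named genes were, per family, up to 6 members past the threshold with or without the block, averaging 0.5 CPM or more, with the largest change, the 2 most abundant members, a list of named enzymes, genes with shared reads, and per pathway list up to 4 called genes with 9 fixed regulators and enzymes. Cyp27a1, Gstm5 and Sult1c2 were added as called members, and Gstm4, Gstt2, Gstt3 and Ugt2b36 as neighbours of named genes, after their values were seen. Some genes that the rule names are not reported here. The members and lists were chosen with earlier results of these data known. Figures were drawn with matplotlib 3.10.9.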

Additional observations from a re-analysis of the deposited data

How the results depend on the processing

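The counts of lower and higher members were 12 and 2. They stayed within 1.5 times of this when scaled by RLE or by library size only, when all genes above 0 counts were tested, and without replicate 2 in both groups. DESeq2 gave 19 lower and 2 higher members, and 26 lower and 5 higher pathway genes. The replicate block gave 24 lower and 3 higher members, and 37 lower and 7 higher pathway genes. It changed no other call than those given beside the genes and these counts, and it removed no member call. Requiring 10 counts in every library left 34 members in the test, of which 6 were lower and 1 was higher. Leaving out 1 culture gave 5 to 10 lower and 0 to 2 higher members, and 3 to 15 lower and 0 to 2 higher pathway genes. Without replicate 1 in both groups there were 0 in each by edgeR, and no gene of the whole table passed while 1938 had an unadjusted p under 0.05. Without CTL replicate 1 there were 6 lower and 0 higher members, without TGF-β1 replicate 1 there were 5 and 0, and without replicate 3 in both groups 4 and 0, with 9 lower and 0 higher pathway genes. Without replicate 2 in both groups there were 16 and 2, with 20 and 3 pathway genes. The cause was not tested. Gstm1, Ugt1a7c, Ugt2b34, Ugt2b37 and Ugt2b5 were called lower in all 6 fits that left out 1 culture, and neither Cyp11b1 nor Cyp26a1 was called in all 6.

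Among the named genes, direction reversed only in genes that were not called without the block, and Cyp1b1, called with the block, was 1 of them. With library size only, Cyp4f17 had a log2 fold change of -0.0382. Over the fits that left out 1 culture, the log2 fold change ranged from -1.07 to 0.261 for Cyp1b1, from -0.0557 to 0.0280 for Cyp20a1, from -0.563 to 0.230 for Cyp27b1, from -0.173 to 0.0484 for Cyp2j6, from -0.0996 to 0.406 for Cyp4b1, from -0.0313 to 0.105 for Cyp4f17 and from -0.191 to 0.111 for Tiparp, and also from -0.483 to 0.521 for Ugt2b36 and from -0.0613 to 0.187 for Gstm4. It was 0.0912 for Cyp27b1 without replicate 1 in both groups, 0.00648 for Cyp2j6 and 0.0798 for Tiparp without replicate 2 in both groups, and 0.00746 for Cyp20a1 without replicate 3 in both groups. Depth limits the Ugt folds, since Ugt2b37 and Ugt2b5 had 5 and 4 counts over all TGF-β1 libraries.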
